A study of Mus musculus with 22 samples.

Results

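The genes described here encode the 7 subunits of AMP-activated protein kinase (AMPK) in the mouse: the catalytic subunits alpha1 (Prkaa1) and alpha2 (Prkaa2), the scaffold subunits beta1 (Prkab1) and beta2 (Prkab2), and the regulatory subunits gamma1 (Prkag1), gamma2 (Prkag2) and gamma3 (Prkag3). They were taken by name from 48709 genes counted, and all 7 passed the filter on low counts in both experiments. Prkag3 had been picked for its strong fall after loss of Lin9, so its values between LIN9 genotypes are a description without a test, and it is left out of every count of subunits between LIN9 genotypes.

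The RNA came from the heart ventricles of E13.5 mouse embryos, with 3 libraries per genotype and 18 in all. In the study's description the experiments are the biological replicates of LIN9 KO against LIN9 wt, each with replicate libraries, so the 3 libraries of a group may not be separate biological samples, and every n = 3 counts libraries. Every embryo carried Nkx2.5-Cre, a Cre driver active in cardiac precursor cells. The first experiment held LIN9 wt and LIN9 KO ventricles (6 libraries). The second held LIN9 wt Sav1 wt, LIN9 KO Sav1 wt, LIN9 wt Sav1 KO (called Sav1 KO here) and LIN9 KO Sav1 KO (called double KO) ventricles (12 libraries). LIN9 KO embryos were Lin9 fl/fl and Sav1 KO embryos Sav1 fl/fl. The controls named LIN9 wt are wild-type in the labels and Lin9 fl/+ in the study's results and figure legends, so they may carry 1 deleted allele. LIN9 is a core subunit of the MuvB complex, which regulates cell cycle genes, and SAV1 is a scaffold of the Hippo pathway, which restrains the co-activator YAP. Cells of the ventricle that do not descend from Cre-expressing precursors keep their floxed alleles.

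AMPK is a trimer of 1 alpha, 1 beta and 1 gamma subunit that senses the energy state of the cell. AMP or ADP bound by the gamma subunit promotes phosphorylation of the alpha subunit by LKB1, after which the kinase restrains ATP-consuming synthesis of lipid and protein and favours fatty acid oxidation and glucose uptake. The beta subunit holds the trimer together and carries a glycogen-binding domain. In heart muscle alpha2 and gamma2 are prominent isoforms, mutations of gamma2 are a known cause of cardiomyopathy with glycogen storage, and gamma3 is known mainly from fast skeletal muscle.

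Total counts lay between 9485599 and 9615274 per library in the first experiment and between 2770741 and 2999877 in the second, so that 1 count stood for about 0.105 and 0.341 CPM (counts per 1000000 counts). Lin9 itself fell by 0.80 on the log2 scale in LIN9 KO Sav1 wt ventricles (SE 0.19, adjusted p = 0.0027), while its change was -0.31 (SE 0.14, adjusted p = 0.13) in the first experiment and -0.16 (adjusted p = 0.586) in double KO against Sav1 KO ventricles, whose Lin9 libraries overlapped. Lin9 was 0.56 higher in double KO than in LIN9 KO Sav1 wt ventricles (all libraries higher, unadjusted p = 0.00862, adjusted p = 0.238, edgeR). The Sav1 change was -0.50 (SE 0.12, adjusted p = 0.318) in Sav1 KO ventricles and -0.23 (adjusted p = 0.464) in double KO against LIN9 KO ventricles, and every knockout library was lower than every control library. Counts over a whole gene include exons outside the deleted one, so they check the labels only in part, and 25.38% of the exonic bases of Sav1 are shared with Atl1. Of 12 cardiomyocyte markers, 10 could be tested and Actc1 and Pln were listed at 0 in all 18 libraries. The others were abundant, with a sum between 22300 and 25800 CPM in LIN9 wt ventricles with Sav1 wt. Since 2 listed cardiomyocyte markers stood at 0 in ventricles, a 0 in these counts may not mean that the RNA was absent.

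Within control ventricles the subunits spanned a wide range of levels, compared here as CPM per kb of exon to allow for gene length. Of the exonic bases, 43.68% of Prkag1 and 14.46% of Prkag2 lie under other annotated genes. Their levels per kb, and their places in the order here and below, are uncertain to that extent. In LIN9 wt ventricles of the first experiment Prkaa2 stood highest at 28.9 ± 0.295 CPM per kb (SD, n = 3), followed by Prkag2 at 20.8 ± 0.438 and Prkab2 at 13 ± 0.98. Prkag1 (7.77 ± 0.49) and Prkab1 (6.73 ± 0.418) came next. Prkag3 (3.95 ± 0.277) and Prkaa1 (3.56 ± 0.412) were lowest, with overlapping ranges, and Prkag3 was above Prkaa1 in 3 of 3 libraries. The LIN9 wt Sav1 wt ventricles of the second experiment gave the same order, with Prkaa2 at 29.9 ± 2.7 and Prkag3 at 3.24 ± 0.777 beside Prkaa1 at 3.10 ± 0.151, and there Prkag3 was above Prkaa1 in 2 of 3 libraries. As measured, the most abundant isoform of each subunit type was therefore alpha2, beta2 and gamma2.

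In LIN9 KO ventricles this order was different. Prkab2 stood highest per kb, at 18.1 ± 2.29 in the first and 19.5 ± 3.22 in the second experiment, and Prkaa2 stood at 12 ± 3.47 and 12.9 ± 0.423, behind Prkag2 at 15.1 ± 2.1 and 15.9 ± 2.12. The ranges of Prkab2 and Prkag2 overlapped in both experiments, but within the same library Prkab2 was above Prkag2 in 3 of 3 in the first and in 2 of 3 in the second. Prkag2 was above Prkaa2 in 3 of 3 libraries of each experiment, with overlapping ranges in the first. In double KO ventricles Prkab2 (17.6 ± 0.954) was above Prkag2 in 3 of 3 libraries, while Prkag2 (16.0 ± 1.66) was above Prkaa2 (15.2 ± 1.23) in only 2 of 3, with overlapping ranges for both pairs. Prkag3 stood last, at 1.10 ± 0.206 and 0.738 ± 0.375.

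**Figure D1:**
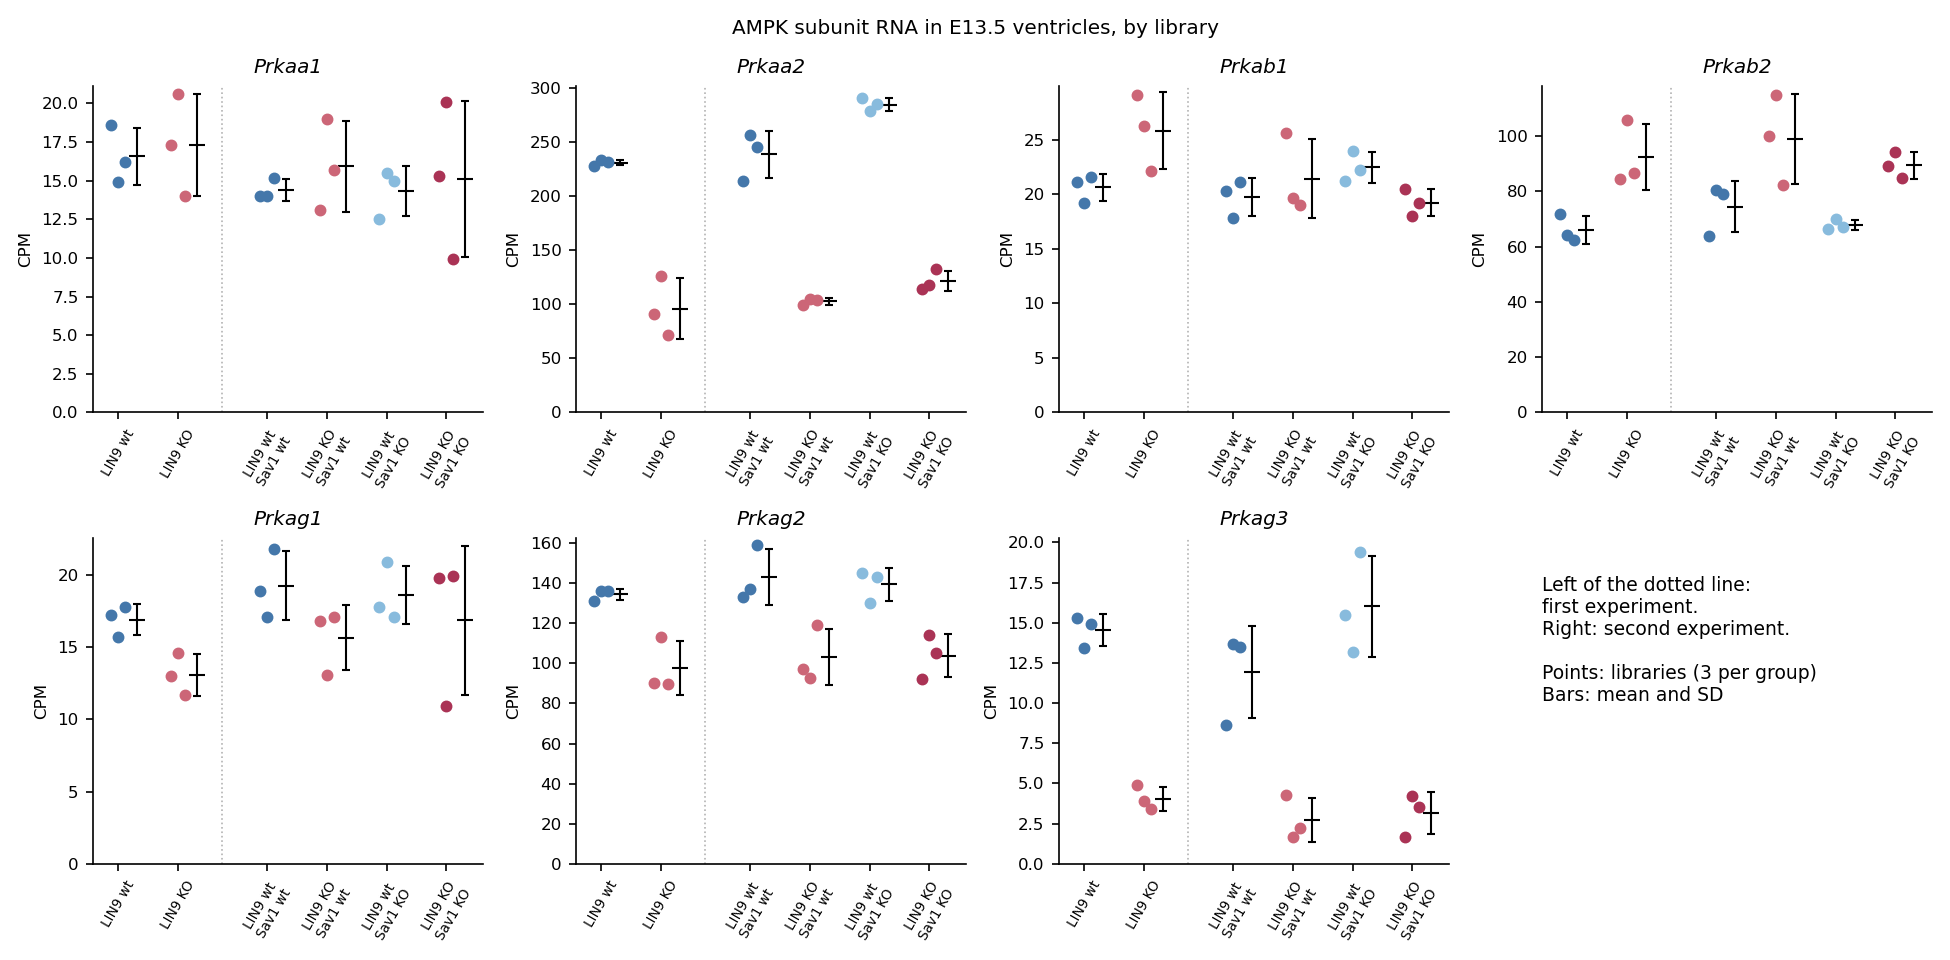
Level of each AMPK subunit gene in CPM in every library (points) by genotype group, with the mean and SD of 3 libraries (bars), for both experiments. Prkaa2 and Prkag3 of all LIN9 KO libraries sit below all LIN9 wt libraries, while the groups overlap for Prkaa1.

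Between LIN9 KO and LIN9 wt ventricles of the first experiment, Prkaa2 and Prkag2 fell and Prkab2 rose, which makes 3 of the 6 subunits counted. Of all 19752 genes tested, 20.9% (4131 genes, or 2722 without LIN9 wt replicate 3) passed the same threshold, an adjusted p under 0.05 (quasi-likelihood test of edgeR, Benjamini-Hochberg adjustment over all genes). The second experiment, in an independent set of libraries, called the same 3 genes in the same directions with Sav1 wt (3 of 6, beside 23.2% of all 17675 genes) and again in double KO against Sav1 KO ventricles (3 of 6, beside 23.4% of all genes). The median log2 fold change of the 6 subunits was -0.15, -0.09 and -0.18 in these comparisons, beside 0.02, 0.01 and 0.03 over all genes. With 6 genes the share called rests on few members, and the subunits did not move in one direction.

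Prkaa2 (ENSMUSG00000028518, chr4:105029874-105109890, minus strand, GRCm38.p6) encodes alpha2, the catalytic isoform with the highest level in these ventricles. In the first experiment its level was 228, 233 and 231 CPM in the LIN9 wt libraries and 90.4, 126 and 71.3 CPM in the LIN9 KO libraries. The groups lay far apart, and the KO libraries varied more than the wt libraries. The log2 fold change was -1.27 (SE 0.17, 95% interval -1.64 to -0.90, adjusted p = 0.000316), a level 2.40-fold lower.

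In the second experiment Prkaa2 stood at 214, 256 and 245 CPM in LIN9 wt Sav1 wt and at 98.9, 105 and 104 CPM in LIN9 KO Sav1 wt libraries. In Sav1 KO libraries it stood at 290, 278 and 285 CPM, and in double KO libraries at 114, 118 and 132 CPM. All 6 libraries with LIN9 KO were below all 6 with LIN9 wt, whatever the Sav1 genotype. The log2 fold change after loss of Lin9 was -1.21 with Sav1 wt (SE 0.10, 95% interval -1.41 to -1.01, adjusted p = 5.98e-10) and -1.23 with Sav1 KO (SE 0.10, adjusted p = 3.1e-10). The interaction, that is the difference between these effects, was -0.02 (SE 0.14, 95% interval -0.30 to 0.27, adjusted p = 0.99).

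The promoter window of Prkaa2 is shown because this gene had the largest change among the subunits tested. RefSeq windows of 300 bases, from 250 before to 50 after the start site, were available for all 7 subunits (9 windows) on GRCm38.p6. Of the Prkaa2 window the 150 bases at chr4:105109899-105110048 (minus strand), which end at the base before the start site, read:
Prkaa2: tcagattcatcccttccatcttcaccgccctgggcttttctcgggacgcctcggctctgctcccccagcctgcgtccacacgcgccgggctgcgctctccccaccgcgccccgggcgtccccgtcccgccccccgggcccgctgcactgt
No letters of Prkaa2 are in capitals since no searched motif matched there. The whole window had a GC content of 72.7%, beside a median of 52.7% over 32851 such windows. Motifs were searched on both strands by their letters. The cell cycle gene homology region (CHR), which MuvB complexes bind, was searched as TTTGAA, and a variant of it was searched as TTCGAA. The site of TEAD factors, the DNA-binding partners of YAP, was searched as GGAATG. Sites of GATA factors were searched as TGATAA and, in an alternative spelling, as AGATAA. The E-box was searched as CANNTG, which includes the form that reads CAGCTG. The half-site of oestrogen-related receptors was searched as AAGGTCA. The windows of Prkaa1, Prkaa2, Prkab1 and Prkab2 held none of them, which says only that these letters are not in these windows.

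Prkaa1 (chr15:5143861-5181899, plus strand) encodes alpha1, the isoform found in most tissues. Its level lay between 14.9 and 18.6 CPM in LIN9 wt and between 14.0 and 20.6 CPM in LIN9 KO libraries of the first experiment, and between 9.96 and 20.1 CPM over all libraries of the second. The groups overlapped in every comparison. The log2 fold change after loss of Lin9 was 0.06 (95% interval -0.28 to 0.40, adjusted p = 0.841) in the first experiment and 0.15 (95% interval -0.30 to 0.59, adjusted p = 0.697) in the second with Sav1 wt. These intervals leave room for a change of either sign, but lie above that of Prkaa2.

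The makeup of the catalytic RNA was expressed as the share of Prkaa2 in the summed CPM per kb of Prkaa1 and Prkaa2. The share was 89.0% ± 1.23 (SD, n = 3) in LIN9 wt and 76.1% ± 1.78 in LIN9 KO ventricles of the first experiment, a difference of -13 percentage points. In the second it was 90.6% ± 0.743 in LIN9 wt Sav1 wt, 79.1% ± 2.57 in LIN9 KO Sav1 wt, 92.0% ± 0.98 in Sav1 KO and 82.4% ± 5.67 in double KO ventricles. The differences were -11.5 points with Sav1 wt and -9.63 points with Sav1 KO, and in both every LIN9 KO library was below every LIN9 wt library. Computed from CPM without division by length, the differences were smaller, at -8.81, -7.64 and -6.34 points. The exact two-sided permutation test gave p = 0.1 for each of these, the smallest value that 3 against 3 libraries allow, and 0.3 after adjustment over the 18 share comparisons, so that no share could pass the threshold. Alpha2 remained the larger part in every library.

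Prkab2 (chr3:97658193-97673812, plus strand) encodes beta2 and was the 1 subunit that rose. In the first experiment it stood at 71.8, 64.1 and 62.4 CPM in LIN9 wt and at 84.3, 106 and 86.8 CPM in LIN9 KO libraries. The groups did not overlap, and the log2 fold change was 0.48 (SE 0.11, 95% interval 0.24 to 0.72, adjusted p = 0.00603), or 1.39-fold.

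In the second experiment Prkab2 stood at 63.8, 80.5 and 79.2 CPM in LIN9 wt Sav1 wt and at 99.9, 115 and 82.4 CPM in LIN9 KO Sav1 wt libraries. It stood at 66.3, 69.9 and 67.2 CPM in Sav1 KO and at 89.3, 94.4 and 84.7 CPM in double KO libraries. The LIN9 KO libraries were above the LIN9 wt libraries in both Sav1 backgrounds, by a narrow gap with Sav1 wt. The log2 fold change was 0.41 (SE 0.12, adjusted p = 0.0112) with Sav1 wt and 0.40 (SE 0.12, adjusted p = 0.0161) with Sav1 KO. The call with Sav1 wt was lost without replicate 1 of LIN9 wt Sav1 wt (log2 fold change 0.30, adjusted p = 0.0971) or replicate 2 of LIN9 KO Sav1 wt (0.26, adjusted p = 0.164), and the call with Sav1 KO without any 1 of 3 libraries (0.34 to 0.39, adjusted p = 0.0544 to 0.0959).

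Prkab1 (chr5:116013586-116024508, minus strand), which encodes beta1, had log2 fold changes of different sign. Its level ranged from 19.2 to 21.6 CPM in LIN9 wt and from 22.1 to 29.1 CPM in LIN9 KO libraries of the first experiment, without overlap. All KO libraries were higher for 18.4% of all genes there. The log2 fold change of Prkab1 was 0.32 (SE 0.13, adjusted p = 0.0988) in the first experiment, 0.12 (SE 0.17, adjusted p = 0.665) in the second with Sav1 wt and -0.22 (SE 0.17, adjusted p = 0.37) with Sav1 KO. The interaction of these last effects was -0.35 (SE 0.24, 95% interval -0.83 to 0.14, adjusted p = 0.844), and -0.42 to -0.18 when 1 library was left out. Without replicate 3 of LIN9 KO, Prkab1 passed the threshold in the first experiment (log2 fold change 0.42, adjusted p = 0.0212).

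The share of Prkab2 in the beta subunit RNA was 65.8% ± 2.02 in LIN9 wt and 68.2% ± 4.0 in LIN9 KO ventricles of the first experiment, and the libraries overlapped (exact permutation test, p = 0.4). In the second it was 69.3% ± 3.83 in LIN9 wt Sav1 wt, 73.4% ± 4.01 in LIN9 KO Sav1 wt, 64.5% ± 0.803 in Sav1 KO and 73.7% ± 1.99 in double KO ventricles. Only double KO against Sav1 KO (9.15 points higher) and Sav1 KO against LIN9 wt Sav1 wt (-4.77 points) had no overlap among the 6 comparisons of this share, both at the smallest p of 0.1. Leaving out 1 library moved the latter within -6.69 to -2.86 points and the differences between LIN9 genotypes within 1.1 to 4.67 points in the first experiment, 1.9 to 6.04 with Sav1 wt and 8.0 to 9.77 with Sav1 KO.

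Prkag2 (chr5:24862744-25100642, minus strand) encodes gamma2. It stood at 131, 136 and 136 CPM in LIN9 wt and at 90.3, 113 and 89.5 CPM in LIN9 KO libraries of the first experiment. All KO libraries were lower, with a log2 fold change of -0.46 (SE 0.11, 95% interval -0.69 to -0.23, adjusted p = 0.00738), or 1.38-fold lower. Per CPM of summed cardiomyocyte markers, a scale described below, Prkag2 was instead higher in all LIN9 KO libraries. Its log2 ratio was 0.52 in the first experiment, 0.53 with Sav1 wt and 0.54 with Sav1 KO. Of its exonic bases 14.46% lie under other annotated genes (Prkag2os1 and Prkag2os2), whose reads may not be separated from its own.

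In the second experiment Prkag2 stood at 133, 137 and 159 CPM in LIN9 wt Sav1 wt and at 97.3, 92.8 and 119 CPM in LIN9 KO Sav1 wt libraries. It stood at 145, 130 and 143 CPM in Sav1 KO and at 92.4, 114 and 105 CPM in double KO libraries. As in the first experiment the LIN9 KO libraries were all lower, in either Sav1 background. The log2 fold change was -0.48 (SE 0.11, adjusted p = 0.00214) with Sav1 wt and -0.43 (SE 0.11, adjusted p = 0.0057) with Sav1 KO, and the interaction was 0.05 (SE 0.16, 95% interval -0.27 to 0.38, adjusted p = 0.976).

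Prkag2 has start sites far apart, and RefSeq gave 3 windows for it. The middle one is shown since it was the only one of the 9 windows that held the TEAD letters, the motif class through which YAP reaches DNA. Its 250 bases before the start site, chr5:24995754-24996003 (minus strand), read as follows, with the TEAD motif and the receptor half-site in capitals and its 3 E-boxes, the first at position -237 and overlapping the TEAD letters, not marked:
Prkag2: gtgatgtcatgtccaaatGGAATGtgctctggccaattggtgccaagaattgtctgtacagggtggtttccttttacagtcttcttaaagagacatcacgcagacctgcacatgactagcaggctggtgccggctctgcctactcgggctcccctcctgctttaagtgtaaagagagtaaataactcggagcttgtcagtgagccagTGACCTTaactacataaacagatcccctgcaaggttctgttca
GGAATG began at position -232 from the start site and was in 14.7% of all windows, and AAGGTCA, present on the other strand at position -43, was in 4.72%. The counts do not tell which start site the Prkag2 reads came from.

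Prkag1 (chr15:98812797-98831521, minus strand) encodes gamma1, the widely expressed isoform. It ranged from 15.7 to 17.8 CPM in LIN9 wt and from 11.7 to 14.6 CPM in LIN9 KO libraries of the first experiment, without overlap. All KO libraries were lower for 18.1% of all genes there. The log2 fold change of Prkag1 was -0.37 (SE 0.14, 95% interval -0.67 to -0.07, adjusted p = 0.0813). In the second experiment the change was -0.30 (SE 0.21, adjusted p = 0.328) with Sav1 wt and -0.14 (adjusted p = 0.679) with Sav1 KO. Of its exonic bases 43.68% lie under another annotated gene, B130046B21Rik, and its counts are uncertain to that extent. Its window held the CHR letters TTTGAA at position -211, as did 17.9% of all windows.

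The share of Prkag2 in the summed CPM per kb of Prkag1 and Prkag2 was 72.8% ± 1.41 in LIN9 wt and 71.4% ± 1.26 in LIN9 KO ventricles of the first experiment, a difference of -1.38 points (exact permutation test, p = 0.5). In the second experiment the difference was -2.62 points (p = 0.2, exact permutation test) with Sav1 wt and -3.96 points (p = 0.6) with Sav1 KO. Leaving out 1 library moved these differences within -1.83 to -0.561, -3.41 to -1.27 and -9.06 to -0.712 points, so their size rests on single libraries. The libraries of the double KO were far apart, at 67.6% ± 8.94. With 43.68% of the exonic bases of Prkag1 and 14.46% of those of Prkag2 under other annotated genes, the level of the Prkag2 share is uncertain in every group.

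**Figure D2:**
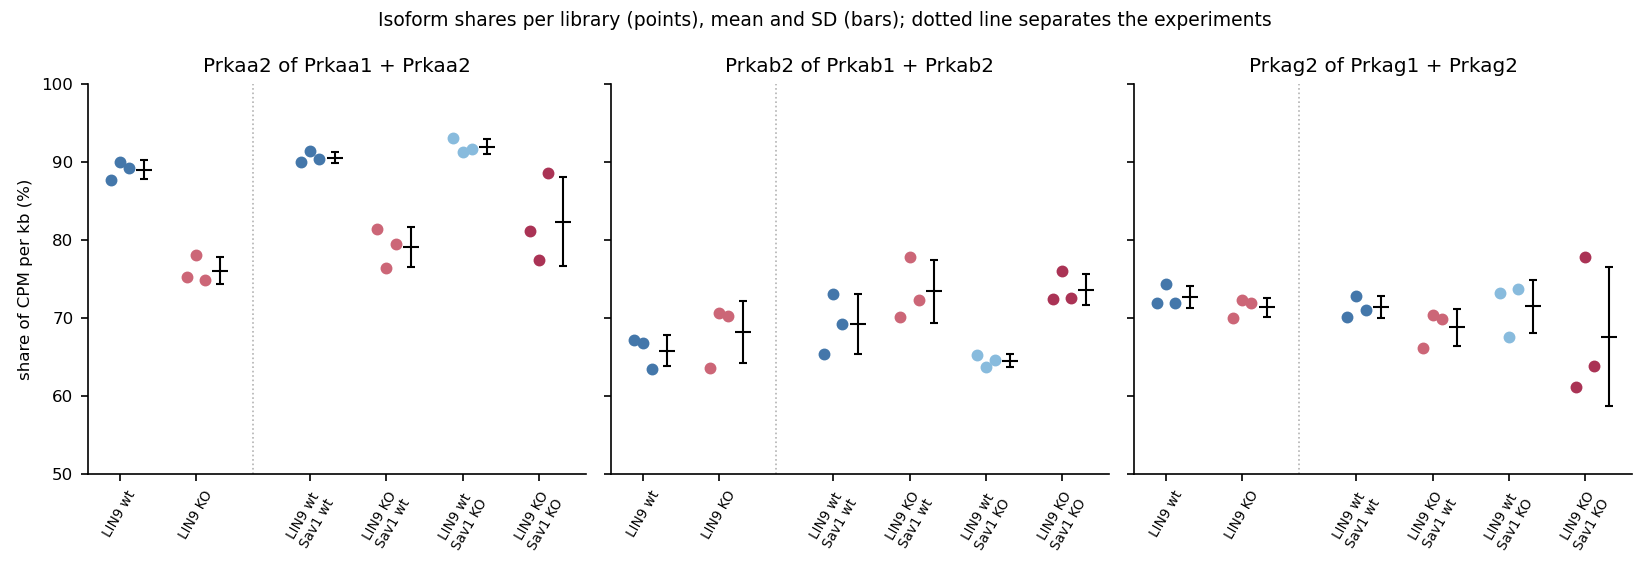
Share of the isoform 2 gene in the summed CPM per kb of isoforms 1 and 2 for the alpha, beta and gamma subunits, in percent, on an axis from 50 to 100%. Points are libraries and bars the mean and SD of 3 libraries. The Prkaa2 share of every LIN9 KO library of the first experiment and with Sav1 wt lies below every LIN9 wt library, and the Prkag2 shares overlap.

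Prkag3 (ENSMUSG00000006542, chr1:74738922-74749221, minus strand) encodes gamma3, and its exons share no bases with another gene. In the first experiment it had 149, 127 and 143 counts in LIN9 wt and 45, 37 and 33 counts in LIN9 KO libraries, which is 15.3, 13.4 and 14.9 against 4.88, 3.88 and 3.39 CPM. In the second it had 26, 40 and 39 counts in LIN9 wt Sav1 wt and 13, 5 and 6 counts in LIN9 KO Sav1 wt libraries (8.64 to 13.7 against 1.64 to 4.27 CPM). It had 46, 39 and 57 counts in Sav1 KO and 5, 12 and 10 counts in double KO libraries (15.5, 13.2 and 19.4 against 1.70, 4.23 and 3.56 CPM). In both experiments every LIN9 KO library was below every LIN9 wt library, by the choice of the gene.

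As a description, the Prkag3 log2 fold change was -1.84 (SE 0.18, 95% interval -2.23 to -1.46, 3.59-fold lower) in the first experiment, where 125 of 19752 genes had a lower one. It was -2.11 (SE 0.34, 95% interval -2.80 to -1.41, 4.31-fold lower) with Sav1 wt and -2.33 (SE 0.32, 95% interval -2.98 to -1.68, 5.04-fold lower) with Sav1 KO in the second, where 103 and 42 of 17675 genes had lower ones. The low counts of the second experiment make its intervals wide. The interaction was -0.22 (SE 0.51, 95% interval -1.28 to 0.83), an interval that leaves room for a difference of either sign between the Sav1 backgrounds, and it ranged from -0.49 to 0.29 when 1 library was left out.

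A stretch of 30 bases of the Prkag3 window is shown because it holds the CHR variant that no other subunit window held. It lies at chr1:74749030-74749059 (minus strand), before the RefSeq start site but wholly within exonic bases of the gene in GENCODE, with the motif in capitals:
Prkag3: taaaactttcagTTCGAAgatgagagttcc
TTCGAA began at position -92 and was in 1.56% of the 32851 windows. The same window held the E-box form CAGCTG at position -40, which was in 16.3% of all windows, while the general E-box CANNTG was in 72.3%. Such a match describes the sequence and is no sign of binding.

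No tested gene within 100 kb of Prkag3 fell past the threshold in the first experiment or, in the second, with Sav1 wt or Sav1 KO. Cyp27a1, which encodes a sterol hydroxylase and lies 1030 bases away, had a log2 fold change of 0.31 (SE 0.17, adjusted p = 0.227) in the first experiment and rose by 0.89 (SE 0.18, adjusted p = 0.000625) in the second with Sav1 wt and by 0.97 (SE 0.19, adjusted p = 0.000391) with Sav1 KO. Ttll4, which encodes a polyglutamylase, had log2 fold changes of -0.08 (adjusted p = 0.756), -0.18 (adjusted p = 0.27) and -0.16 (adjusted p = 0.32) in the same order. Wnt6 was tested and not called, and Gm27507, Gm29539 and Wnt10a were too low to test.

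Since gamma3 is known from skeletal muscle, 12 skeletal muscle genes were read in the same libraries. Myf5, a defining myogenic factor, was listed at 0 in all 18 libraries, and Myod1 had at most 5 and Pax7 at most 3 counts. The cardiomyocyte markers Actc1 and Pln were also listed at 0, so the 0 of Myf5 is not read as absence. Of the 9 genes that could be tested in the first experiment 2 rose and none fell in LIN9 KO ventricles, beside 11.1% higher and 9.78% lower over all genes. Of 7 in the second 2 rose and none fell with Sav1 wt, beside 12.8% and 10.5% of all genes. Their summed level was 38.0 to 40.2 CPM in LIN9 wt and 40.7 to 71.1 CPM in LIN9 KO libraries of the first experiment, and 29.8 to 41.2 against 49.2 to 54.8 CPM in the second with Sav1 wt. With Sav1 KO the sums overlapped, at 38.2 to 45.2 against 40.2 to 53.7 CPM. Tnnt3, a fast troponin named here after its values were seen, had 24 to 32 counts in LIN9 wt and 92 to 386 counts in LIN9 KO libraries of the first experiment, while Tnni2 had 234 to 261 against 170 to 256 counts and Mylpf 44 to 59 against 34 to 41. The median log2 fold change of the tested genes was -0.23 in the first experiment, 0.61 with Sav1 wt and -0.39 with Sav1 KO. The part of skeletal muscle RNA in the Prkag3 values was not tested.

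**Figure D3:**
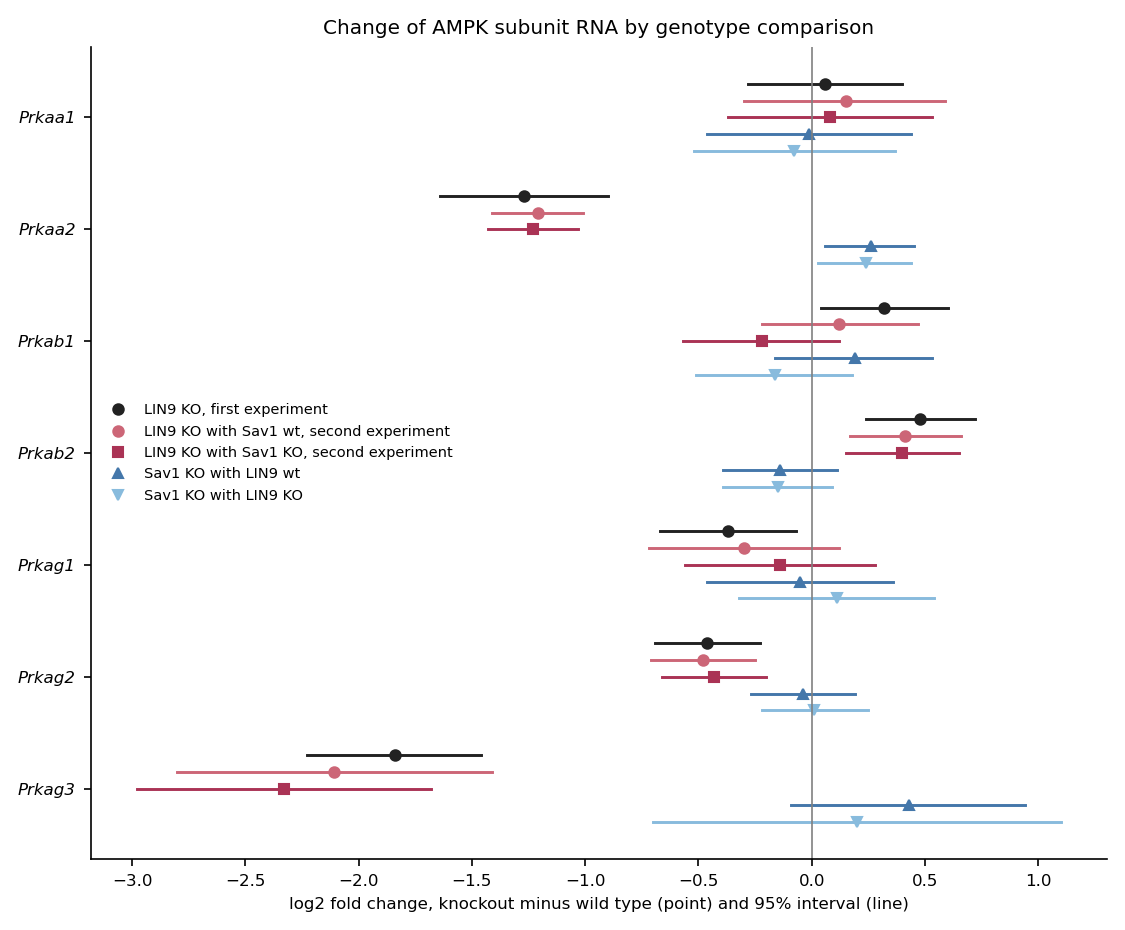
log2 fold change of each subunit gene (points) with its 95% interval (lines) for loss of Lin9 in 3 backgrounds (circles and squares) and for loss of Sav1 in LIN9 wt and LIN9 KO ventricles (triangles). Prkaa2, Prkag2 and Prkag3 lie left of 0 and Prkab2 right of 0 in each LIN9 comparison, and the Prkag3 intervals are the widest of the 7 genes there.

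Loss of Sav1 changed no subunit past the threshold. With LIN9 wt, 0 of 7 were called by edgeR and 1 had an unadjusted p under 0.05, beside 0.017% of all genes called (3 of 17675) and 693 genes at an unadjusted p under 0.05. The count over all genes was 0 without LIN9 wt Sav1 wt replicate 2 or 3 or any 1 of the 3 Sav1 KO libraries, 22 without the filter on low counts and 31 in a fit of 6 libraries, and that of the subunits was 0 in each. With LIN9 KO, 0 of 7 were called and 1 had an unadjusted p under 0.05, beside 0.0113% of all genes (2 of 17675) and 2093 genes at that level. Without LIN9 KO replicate 3 the count over all genes in the latter comparison was 378, and that of the subunits stayed at 0. DESeq2 called 0 of 7 in both. The gene with the low unadjusted p was Prkaa2 in both cases, at 0.26 (SE 0.09, 95% interval 0.06 to 0.45, unadjusted p = 0.0119, adjusted p = 0.999, edgeR) with LIN9 wt and at 0.24 (SE 0.10, 95% interval 0.03 to 0.44, unadjusted p = 0.0239, adjusted p = 0.341, edgeR) with LIN9 KO, on the log2 scale. All 3 Sav1 KO libraries were above all 3 controls in either background, as for 5.97% of all genes with LIN9 wt and 7.20% with LIN9 KO, and the adjusted p misses the threshold.

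For the other subunits the Sav1 intervals with LIN9 wt were -0.27 to 0.19 for Prkag2 (log2 fold change -0.04, adjusted p = 0.999) and -0.39 to 0.11 for Prkab2 (-0.14, adjusted p = 0.999). Prkab1 had a log2 fold change of 0.19 (95% interval -0.16 to 0.53, adjusted p = 0.999) with all 3 Sav1 KO libraries above the controls, and 0.10 to 0.24 when 1 library was left out. Prkag1 (-0.05, 95% interval -0.46 to 0.36) and Prkaa1 (-0.01, 95% interval -0.46 to 0.44) had wider intervals. With LIN9 KO the values of these 5 subunits lay between -0.16 for Prkab1 and 0.11 for Prkag1, and their libraries overlapped. The choice of Prkag3 by its fall between LIN9 genotypes used libraries of both Sav1 contrasts. Its values here, and its place among the subunits counted, are thus not independent of that choice. Prkag3 had a log2 fold change of 0.43 (SE 0.25, 95% interval -0.09 to 0.94, adjusted p = 0.999) with LIN9 wt and 0.20 (SE 0.44, 95% interval -0.70 to 1.10, adjusted p = 0.9) with LIN9 KO, and its libraries overlapped in LIN9 wt ventricles. Leaving out 1 library moved these values within 0.24 to 0.54 and -0.07 to 0.71. A missed threshold does not show that the levels were alike, and for Prkag3 the intervals are wide.

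Double KO ventricles, compared with LIN9 wt Sav1 wt ventricles, gave 2 of 6 subunits called, beside 20.6% of all genes (10.7% higher and 9.96% lower). This comparison shares its control libraries with those of LIN9 KO Sav1 wt and of Sav1 KO. Prkaa2 fell by 0.97 on the log2 scale (SE 0.10, adjusted p = 3.31e-08), and with LIN9 KO alone its log2 fold change was -1.21. Prkag2 fell by 0.47 (SE 0.11, adjusted p = 0.00322) and Prkab2 had a change of 0.26 (SE 0.12, adjusted p = 0.125). The interaction of LIN9 and Sav1 called 0 of 6 subunits and 0% of all genes with edgeR, with 0 subunits and 1156 genes at an unadjusted p under 0.05, and DESeq2 called 0 of 6 subunits. The count over all genes was 64 without LIN9 KO Sav1 wt replicate 3, 2 without LIN9 wt Sav1 wt replicate 1 and 17 without the filter on low counts, and that of the subunits was 0 in each.

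The cardiomyocyte markers fell in the LIN9 KO ventricles, as Prkaa2 and Prkag2 did and Prkab2 did not. Of the 10 tested, 7 fell and none rose in LIN9 KO ventricles in each of the LIN9 comparisons. Of all genes 9.78% fell in the first experiment and, in the second, 10.5% with Sav1 wt, 11.6% with Sav1 KO and 9.96% in double KO ventricles. The markers had a median log2 fold change of -0.96 in the first experiment and -0.98 in the second with Sav1 wt. Their summed level was 22300 to 22700 CPM in LIN9 wt and 9990 to 13800 CPM in LIN9 KO libraries of the first experiment. In the second it was 24600 to 25800 CPM in LIN9 wt Sav1 wt, 12200 to 13500 in LIN9 KO Sav1 wt, 26400 to 27700 in Sav1 KO and 12200 to 15100 in double KO libraries.

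Markers of some other cell types rose in the same ventricles, where 11.1% of all genes rose in the first experiment and 12.8% in the second with Sav1 wt. Of 7 tested erythroid markers, 7 rose in the first experiment and 7 in the second with Sav1 wt, with Alas2 listed at 0. Their summed level was 2030 to 3610 CPM in LIN9 wt and 16200 to 41400 CPM in LIN9 KO libraries of the first experiment, and 1240 to 1630 against 9630 to 17900 CPM in the second with Sav1 wt. Of 7 fibroblast markers, 6 rose in each experiment, and of 6 epicardial markers 5 rose in each. Of 6 macrophage markers, 5 rose in the first experiment and 4 in the second with Sav1 wt. Of 6 endothelial markers, 2 rose in the first experiment, 2 with Sav1 wt and 3 with Sav1 KO in the second. In the second 1 fell with Sav1 wt, which was Kdr, an endothelial receptor (log2 fold change -0.83, adjusted p = 1.45e-05), and 1 fell with Sav1 KO. With Sav1 KO 11.8% of all genes rose and 11.6% fell. Of 6 atrial markers, 0 were called in the first experiment by edgeR and 1 rose in the second. In whole ventricle RNA, fewer cells of a type and less RNA per cell cannot be told apart, and the part of cell makeup in the subunit changes was not tested.

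Subunit levels were also expressed per 10000 CPM of the summed cardiomyocyte markers, a ratio chosen after the levels had been seen and given without a test. Prkaa2 then stood at 102 ± 0.548 in LIN9 wt and 82.3 ± 10.0 in LIN9 KO ventricles of the first experiment and at 93.7 ± 6.46 and 81.3 ± 7.09 in the second with Sav1 wt. The difference from LIN9 wt was thus -0.31 and -0.21 on the log2 scale, smaller than in CPM, with all KO libraries still lower. With Sav1 KO it was -0.26, again with all LIN9 KO libraries lower, but double KO against LIN9 wt Sav1 wt libraries overlapped at -0.09, where the log2 fold change in CPM had been -0.97. Prkag3 differed by -0.84 in the first experiment and by -1.16 with Sav1 wt, -1.40 with Sav1 KO and -1.07 in double KO ventricles, with all KO libraries lower in each.

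Prkag2 turned direction on this scale, from 59.6 in LIN9 wt to 85.4 in LIN9 KO ventricles in the first and from 56.4 to 81.4 in the second experiment, a log2 ratio of 0.52 and 0.53 with all KO libraries higher. Prkag1 turned as well, to 0.62 and 0.70, and Prkab2 had log2 ratios of 1.46 and 1.42. Prkaa1, whose groups overlapped in CPM, stood higher in all KO libraries on this scale, with log2 ratios of 1.03 and 1.16, and Prkab1 had 1.32 and 1.11. A marker list that falls in LIN9 KO ventricles raises every ratio made with it, and these values hold only relative to that list.

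**Figure D4:**
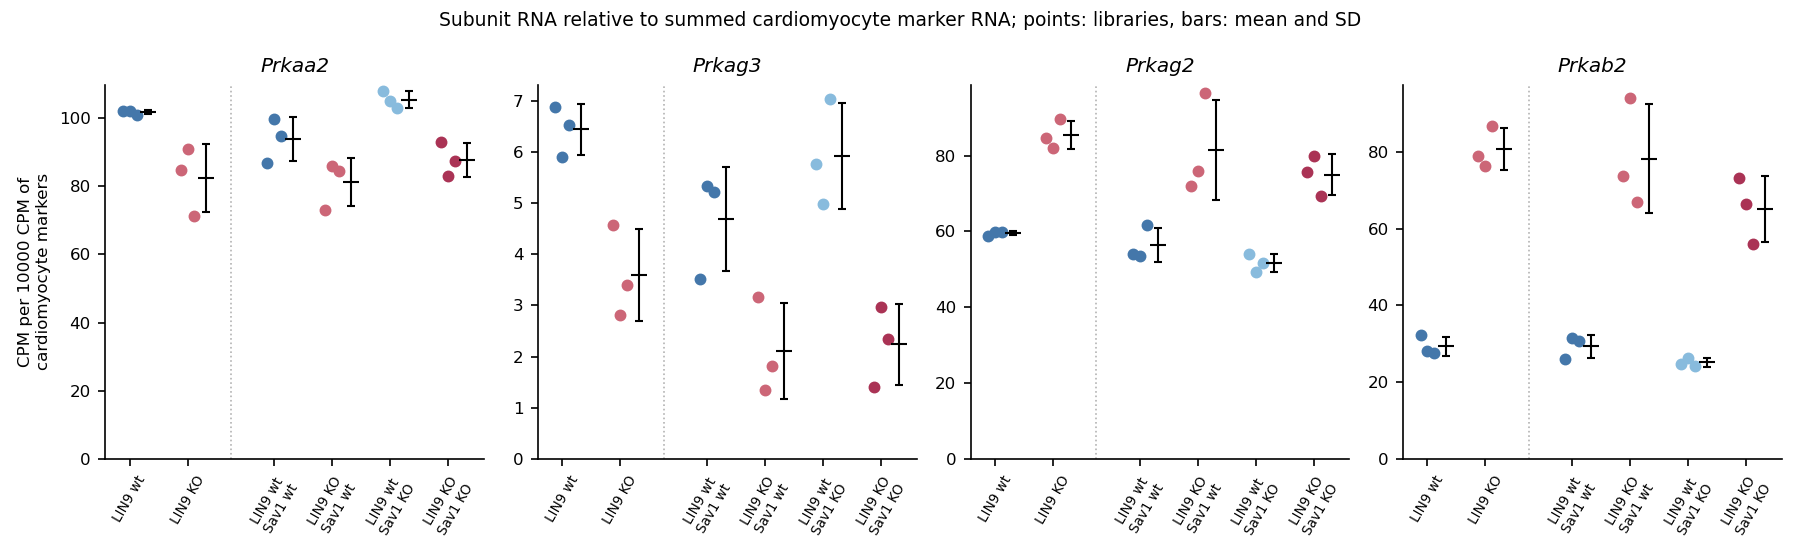
Level of Prkaa2, Prkag3, Prkag2 and Prkab2 per 10000 CPM of summed cardiomyocyte markers in each library (points), with the mean and SD of 3 libraries (bars), for both experiments. Prkaa2 and Prkag3 remain lower in LIN9 KO than in LIN9 wt libraries with Sav1 wt, while Prkag2 and Prkab2 are higher.

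Genes around the kinase were read from a list of 71 genes of the AMPK pathway, grouped by role. In the first experiment 67 could be tested, of which 7 rose and 9 fell in LIN9 KO ventricles, beside 11.1% and 9.78% of all genes. The count in either direction was 9 without LIN9 wt replicate 3 and 26 with a replicate block. The median log2 fold change was -0.08 beside 0.02 over all genes. In the second experiment with Sav1 wt 13 rose and 8 fell of 65 tested, beside 12.8% and 10.5% of all genes, with a median of 0.04 beside 0.01. With Sav1 KO 9 rose and 9 fell, beside 11.8% and 11.6% of all genes, with a median of -0.03 beside 0.03. In double KO against LIN9 wt Sav1 wt ventricles 8 rose and 10 fell, beside 10.7% and 9.96%. Loss of Sav1 changed 0 of 65 by edgeR in either LIN9 background, but 6 with LIN9 KO when replicate 3 of LIN9 KO was left out. Cpt1b, Lipe, Txnip and Ppp2ca were listed at 0 in all libraries, which, as for Actc1 and Pln, may not mean absence.

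By role the counts were small and are read beside the same shares of all genes. These were 11.1% higher and 9.78% lower in the first experiment and 12.8% and 10.5% in the second with Sav1 wt. By role, the second experiment stands for its comparison with Sav1 wt unless Sav1 KO is named. Of the upstream kinases and their partners, 1 of 8 rose in the first experiment and 1 of 8 fell in the second. Stk11, which encodes LKB1, had log2 fold changes of -0.09 (adjusted p = 0.568) and 0.17 (adjusted p = 0.258), and Camkk2, the calcium-dependent upstream kinase, had 0.32 (adjusted p = 0.11) and 0.25 (adjusted p = 0.241). Neither was called. Ppm1e, a phosphatase that acts on AMPK, fell by 0.65 (adjusted p = 0.00407) and by 0.75 (adjusted p = 0.000701).

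Among the enzymes of adenine nucleotides, which set the AMP level that gamma subunits sense, 2 fell in each experiment, of 7 and 6 tested. These were Ak1, an adenylate kinase, at -0.51 (adjusted p = 0.00193) and -0.47 (adjusted p = 0.00127), and Adk, adenosine kinase, at -0.47 (adjusted p = 0.0179) and -0.47 (adjusted p = 0.000404). A different gene of the group rose in each experiment, again named after its values were seen. Ampd1, an AMP deaminase, rose by 2.80 with a wide SE of 0.93 (adjusted p = 0.0447) in the first and was too low to test in the second. Ak4, a mitochondrial adenylate kinase, rose by 0.94 (adjusted p = 2.71e-06) in the second and had 0.35 (adjusted p = 0.0854) in the first.

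Of 8 lipid metabolism targets, 3 fell in the first and 1 in the second experiment with Sav1 wt, and none rose. With Sav1 KO 3 of 8 fell and none rose, beside 11.6% of all genes lower. Acacb encodes acetyl-CoA carboxylase 2, the substrate through which AMPK relieves fatty acid oxidation. It ranged from 115 to 124 CPM in LIN9 wt and from 42.0 to 52.1 CPM in LIN9 KO libraries of the first experiment. Its log2 fold change was -1.38 (adjusted p = 1.11e-06) there and -0.70 (adjusted p = 0.000822) in the second. Acaca, which encodes the carboxylase of fatty acid synthesis, had -0.32 (adjusted p = 0.179) and -0.37 (adjusted p = 0.0592).

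Of 10 mitochondrial and transcriptional targets, 2 rose and 3 fell in the first and 2 rose and 2 fell in the second experiment. Ppargc1a, a co-activator of mitochondrial genes, fell by 0.78 (adjusted p = 0.000313) and by 0.65 (adjusted p = 0.00314), and Mtfr1l, a mitochondrial AMPK substrate, by 0.56 (adjusted p = 0.000778) and by 0.65 (adjusted p = 8.16e-05). Foxo3, a transcription factor of starvation responses, rose by 0.51 (adjusted p = 0.00663) and 1.06 (adjusted p = 2.49e-06), and Nfe2l2, which drives antioxidant genes, by 0.29 (adjusted p = 0.0498) and 0.42 (adjusted p = 0.00492). With Sav1 KO, Foxo3 rose by 0.64 (adjusted p = 0.00113) and Nfe2l2 had 0.08 (adjusted p = 0.678).

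Of the glucose metabolism targets 1 of 8 rose in the first experiment and 3 of 7 in the second, and none fell. These genes are named after their values were seen, and a difference between the experiments was not tested. Pfkfb1 rose in the first (log2 fold change 0.69, adjusted p = 0.00526) and had 0.53 (adjusted p = 0.158) in the second with Sav1 wt. Pfkfb3 (1.21, adjusted p = 1.04e-07), Tbc1d1 (0.37, adjusted p = 0.0108) and Gys1 (0.40, adjusted p = 0.0058) rose in the second. In the first they had 0.80 (adjusted p = 0.1), 0.14 (adjusted p = 0.421) and -0.13 (adjusted p = 0.553). With Sav1 KO, Pfkfb1 (1.00, adjusted p = 0.00659) and Pfkfb3 (0.98, adjusted p = 5.13e-06) rose, and Tbc1d1 and Gys1 were not called. Pfkfb1 and Pfkfb3 encode enzymes that set the level of a glycolytic activator, the product of Tbc1d1 regulates glucose transporter traffic, and Gys1 encodes muscle glycogen synthase. Of 6 growth and autophagy targets 1, Pik3c3, rose in the second experiment (0.60, adjusted p = 0.00333), and it had 0.19 (adjusted p = 0.359) in the first.

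Of the other roles, the related kinases gave 1 higher of 14 in the first and 4 higher and 1 lower in the second experiment, and Sik1, a salt-inducible kinase, rose in both (0.56 and 0.95, adjusted p = 0.0311 and 0.000167). Flcn, whose product folliculin binds AMPK through its partner proteins, rose by 0.32 (adjusted p = 0.0432) and 0.79 (adjusted p = 0.000328). Together 10 of the 65 genes of the list tested in both experiments, or 15.4%, were called in the same direction in both, beside 14.8% of all 17656 genes tested in both. Of these 6 were lower and 4 higher. The share of the list is near that of all genes, so it is no result about the pathway.

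**Figure D5:**
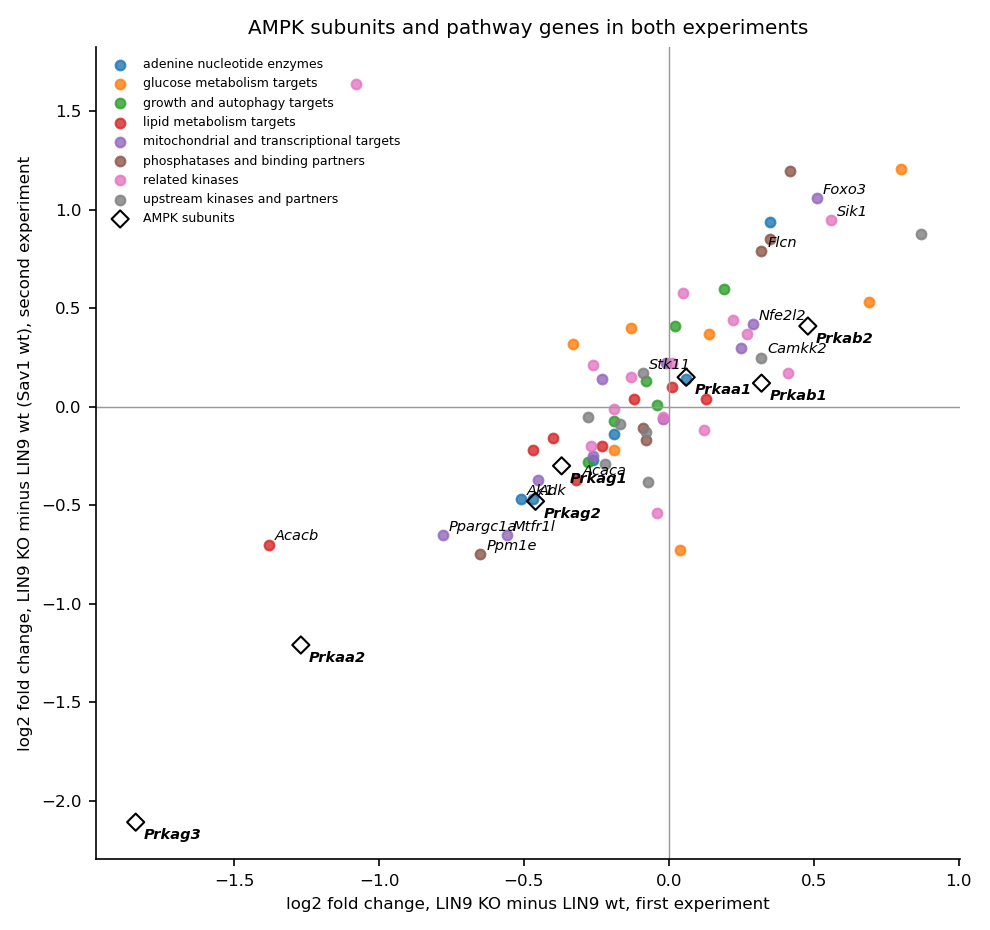
log2 fold change of LIN9 KO against LIN9 wt in the first experiment (horizontal axis) and in the second with Sav1 wt (vertical axis) for the genes of the AMPK pathway list and for the subunits, each point 1 gene. Acacb and Ppargc1a lie at the lower left with Prkaa2, and Foxo3 and Sik1 at the upper right.

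The genes whose log2 CPM followed Prkag3 and Prkaa2 most closely over the 12 libraries of the second experiment were looked up among 12396 genes with a mean of at least 5 CPM. For Prkag3 these were Clcn5, a chloride and proton exchanger (Pearson r = 0.989), Myadml2 (0.985), Ung, a uracil DNA glycosylase (0.983), Nup205, a nuclear pore component (0.980), and Cpped1 (0.976). Over the 6 libraries of the first experiment their r with Prkag3 was 0.583, 0.980, 0.969, 0.107 and 0.899, so that Clcn5 and Nup205 did not follow it there. For Prkaa2 they were Snap91, Bves, Sorbs2, Rnf207 and Strip2, with r from 0.985 to 0.992 over 12 and from 0.967 to 0.988 over 6 libraries. Prkaa2 and Prkag3 followed each other with r = 0.947 over 12 and 0.940 over 6 libraries and Prkaa2 ranked 91 among the genes most like Prkag3. All these points share the split between LIN9 KO and LIN9 wt libraries, and the values are a description.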

How the data were processed

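Poly(A) RNA was sequenced on an Illumina NextSeq. Per the study's methods, the authors mapped the reads with TopHat (TopHat2 2.1.0 in the submitters' processing notes) and Bowtie2 to mm10, brought all samples down to the mappable reads of the smallest, and counted reads per Ensembl gene. The deposited values are these counts, made after that reduction. Strandedness and overlap mode of the counting are not given in the sources used here. The authors' own comparison columns, which hold fold changes and p-values, were not used, and 0 columns of sample values were left unused. Of 4 identifiers that occurred more than once, 1 row each was kept. The 4 samples of ChIP-seq were not used here.

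Genes with a mean count above 1 per experiment entered the quasi-likelihood test of edgeR 4.0.16 (R 4.3.3), after TMM normalization and with robust estimates, with all groups of an experiment in 1 fit and contrasts of group means. Adjusted p-values are Benjamini-Hochberg values over all genes tested, with a threshold of 0.05. SE is the log2 fold change over the root of F. CPM use TMM library sizes, and CPM per kb the merged exons of GENCODE M21. Shares were compared by exact two-sided permutation tests over libraries (scipy 1.17.1). The fit was tested on simulated counts. Nothing states that libraries of a group came from separate animals or litters, and the study describes the experiments, not the libraries, as biological replicates, so p-values measure only the spread between these libraries, which may be technical. No library was a duplicate of another. Depth gives about 0.341 CPM per count in the second experiment, which limits Prkag3.

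The subunits, pathway and marker lists and motifs were chosen with earlier results of these data known. By rule, the text names every subunit, Stk11, Camkk2, Acaca, the pathway genes called in the same direction in both experiments, and the 5 genes most like Prkag3 and Prkaa2. Genes near Prkag3 are named by distance. Alternatives were DESeq2 1.42.0, other normalizations and filters, fits without each library, within 6 libraries and with a replicate block, and, added after seeing the data, the ratio to cardiomyocyte markers. Promoter windows are from RefSeq.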

Additional observations from a re-analysis of the deposited data

How the results depend on the processing

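The counts of subunits called stayed within 1.5 times their value under each alternative in which they were counted (DESeq2, other filters and normalizations, a replicate block, 6 libraries and fits without 1 library, but not the ratio to cardiomyocyte markers, which has no test): 3 to 4 in the first experiment, 2 to 3 with Sav1 wt, 2 to 3 with Sav1 KO, 2 in double KO ventricles and 0 for Sav1 and the interaction. A replicate block gave 3, 3, 3 and 2 subunits called in the LIN9 comparisons in that order and 0 elsewhere. The block cannot move a difference of shares in this balanced design (-13 points for the alpha2 share in the first experiment). Whether same-numbered libraries belong together is not stated, and the main fits did not treat them as pairs. Their correlations reached 0.1 in all 3 pairs nowhere (0.0267 to 0.0873 in the first experiment and 0.0891 to 0.393 with Sav1 wt). With 3 pairs per comparison this cannot exclude a pairing.

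Near 0, directions turned when 1 library was left out. For Prkaa1 the log2 fold change ranged from -0.08 to 0.19 in the first experiment, -0.04 to 0.26 with Sav1 wt, -0.20 to 0.28 with Sav1 KO, -0.21 to 0.27 in double KO, -0.08 to 0.07 and -0.33 to 0.15 for Sav1 with LIN9 wt and LIN9 KO, and -0.31 to 0.17 for the interaction. Prkab1 ranged from -0.04 to 0.17 with Sav1 wt and -0.13 to 0.01 in double KO. Prkag1 ranged from -0.30 to 0.07 with Sav1 KO, -0.36 to 0.01 in double KO, and -0.15 to 0.04 and -0.03 to 0.34 for Sav1 with LIN9 wt and LIN9 KO. Prkag2 ranged from -0.09 to 0.04 and -0.06 to 0.12 for Sav1 and -0.03 to 0.17 for the interaction, and Prkag3 from -0.07 to 0.71 for Sav1 with LIN9 KO and from -0.49 to 0.29 for the interaction. The interaction ranged from -0.07 to 0.07 for Prkaa2 and from -0.12 to 0.12 for Prkab2, which was 0.00 under filterByExpr. The beta2 share ranged from -1.4 to 2.48 points for Sav1 with LIN9 KO, and the gamma2 share from -0.983 to 2.09 and -6.31 to 2.04 points for Sav1 with LIN9 wt and LIN9 KO. Per cardiomyocyte marker CPM, added after seeing the data, the direction turned for Prkag2 (0.52, 0.53, 0.54 and 0.41 in the first experiment, with Sav1 wt, with Sav1 KO and in double KO), for Prkag1 (0.62, 0.70, 0.84 and 0.70) and for Prkab1 (0.75 with Sav1 KO and 0.85 in double KO). These turns follow by arithmetic from dividing by a marker sum that fell in LIN9 KO ventricles, and the cause of that fall was not tested. Prkab2 with Sav1 wt also missed the threshold in a fit of 6 libraries (0.38, adjusted p = 0.0576). Over all genes, calls in the first experiment went from 4131 to 2722 without LIN9 wt replicate 3, and calls for Sav1 with LIN9 KO from 2 to 378 without LIN9 KO replicate 3, 309 without a filter, 84 with the block, 46 with DESeq2 and 0 with filterByExpr. The block raised the pathway genes called in the first experiment from 16 to 26. The lower depth of the second experiment limits Prkag3, with 5 to 13 counts in libraries with LIN9 KO.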
